A study of Mus musculus with 3 samples.

Results

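The 10 genes Cbl, Cblb, Itch, Nedd4, Ndfip1, Rnf128, Peli1, Stub1, Dgka and Dgkz encode ubiquitin ligases, a ligase adaptor and diacylglycerol kinases that restrain T cell receptor signalling or ubiquitinate signalling proteins in T cells. They were chosen by name, for these roles, from the 55536 annotated mouse genes with a row in the gene tables, and all 10 had one. The cells were regulatory T cells (CD4 T cells, Treg for short, that suppress immune responses under the transcription factor Foxp3), labelled as activated and as primary cells of a male mouse aged 9 weeks. Polyadenylated RNA was sequenced in 3 technical libraries of 1 biosample from 1 donor, so each SD with n = 3 is a spread between libraries of the same RNA source. The labels give neither the strain, nor how the cells were activated, nor how they were sorted. There was 1 group and no control, so the results are levels, their order, the transcripts behind them and the spread between libraries.

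An E3 ubiquitin ligase chooses a substrate and brings it to a ubiquitin-conjugating (E2) enzyme, which marks it for degradation or for a change of location or activity. RING and U-box ligases pass ubiquitin straight from the E2 enzyme, whereas HECT ligases first carry it on a cysteine of their own. Diacylglycerol kinases phosphorylate the lipid diacylglycerol, which phospholipase C releases after receptor engagement, and so end its recruitment of RasGRP and protein kinase C proteins. Loss of Cbl-b, Itch or Ndfip1 in mice leads to T cell hyperactivity or inflammation, and GRAIL and the diacylglycerol kinases alpha and zeta are known from T cell anergy, a state of unresponsiveness.

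Levels are in TPM (a measure of transcript abundance with the same total in each library, corrected for transcript length so that genes can be compared). Ndfip1, Dgka, Peli1, Dgkz and Stub1 exceeded 100 TPM, Cblb, Itch and Cbl lay between 40.2 and 75.3 TPM, and Rnf128 and Nedd4 were at 2.78 and 1.89 TPM. A gene was called detected at 1 TPM or more in all 3 libraries, which 9 of the 10 genes met. Nedd4 did not, with 0.740 TPM in library 2. The median of the 10 genes was 97.5 TPM, against 29.2 TPM over the 10429 detected protein-coding genes, and 8 of the 10 stood above that value. Of all 22028 protein-coding genes, 47.3% were detected. The highest and the lowest gene were 468-fold apart.

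**Figure D1:**
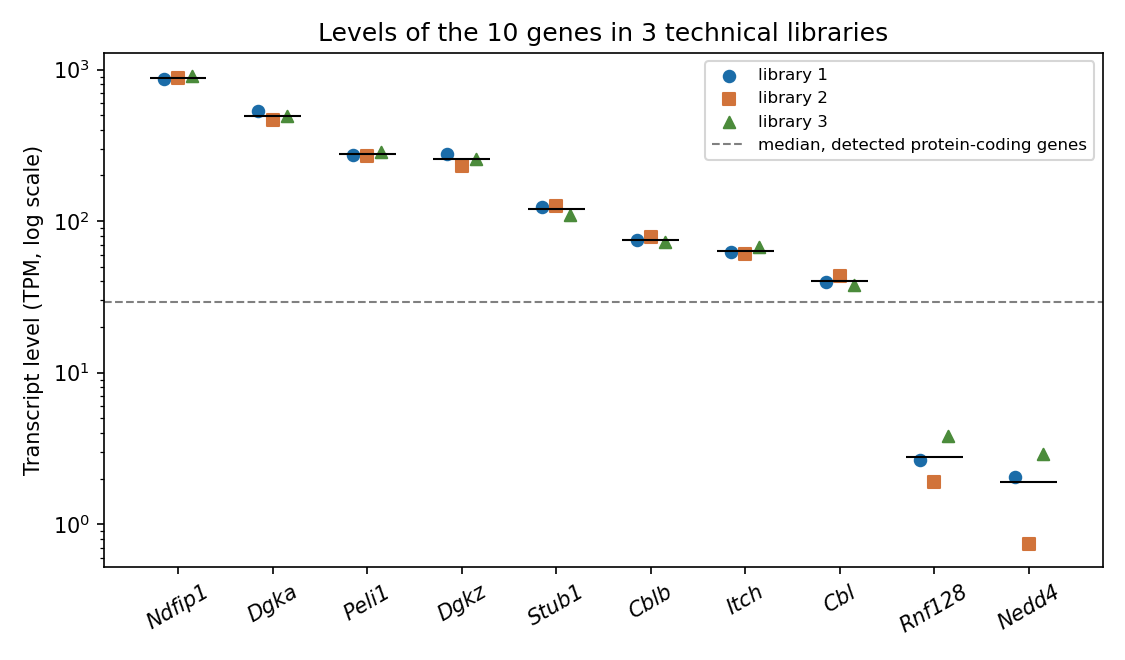
Level of each of the 10 genes in TPM on a log axis, with 1 symbol for each of the 3 technical libraries, a short line at their mean and a dashed line at the median of detected protein-coding genes (29.2 TPM). The symbols of the 8 genes from Ndfip1 to Cbl lie close together and above the dashed line, while Rnf128 and Nedd4 lie below it with their libraries spread apart.

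The libraries held 31445344, 32612609 and 37259281 expected counts. The labelled cell type was checked against its markers: Foxp3 was at 135 ± 2.65 TPM (SD, n = 3), and the 6 Treg markers summed to 2685 to 2770.0 TPM. Sums of other markers ran from 592 to 828 TPM for red cells (all 4 genes detected), from 36.7 to 50.9 for B cells (4 of 5) and from 38.9 to 44.2 for macrophages and monocytes (3 of 5). They ran from 25.7 to 27.9 TPM for CD8 and NK cells (4 of 5) and from 8.49 to 21.5 for plasma cells (2 of 4, with Tnfrsf17 at 0 counts). Dendritic cell markers (1 of 5 detected) summed to at most 4.07, granulocyte markers (0 of 4) to at most 15.4 and stromal markers (0 of 4) to at most 1.30 TPM.

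Ndfip1 (ENSMUSG00000024425.4), which encodes a membrane adaptor that binds and activates NEDD4 family ligases such as Itch, had the highest level. It measured 869, 881 and 902 TPM in libraries 1, 2 and 3, a mean of 884 ± 16.9 TPM at percentile 98.8 of detected protein-coding genes. The 3 libraries were close to each other. Its paralogue Ndfip2 stood at 96.2 ± 5.95 TPM, and Ndfip1 made up 90.2% ± 0.387 of the pair's sum. The log2 ratio of Ndfip1 to Ndfip2 was 3.20 ± 0.06, or 9.20-fold. In another, smaller gene table of the same libraries, whose counts level off in abundant genes, it was 0.68 ± 0.11 per kilobase and 0.55 ± 0.10 by CPM (counts scaled to the library total). A ratio was called larger than the spread between libraries when its 3 values had 1 sign and their mean exceeded 2 SD, as here. With 3 libraries the smallest p that an exact sign-flip test allows is 0.25, so no p is given for any ratio. The transcripts ENSMUST00000236085.1 and ENSMUST00000236052.1, both annotated as protein coding, held 75.2% ± 4.47 and 14.3% ± 4.32 of the gene's TPM.

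Itch (ENSMUSG00000027598.16; mm10 chromosome 2, 155133509 to 155226855, plus strand), the HECT ligase that Ndfip1 activates, measured 62.9, 60.5 and 67.7 TPM, a mean of 63.7 ± 3.66 at percentile 72.1. The adaptor exceeded the ligase by 3.80 ± 0.06 on the log2 scale, or 13.9-fold, in TPM. In the smaller table it was 0.80 ± 0.16 per kilobase and -0.32 ± 0.13 by CPM. Nedd4 (ENSMUSG00000032216.14; chromosome 9, 72662346 to 72749852, plus strand), the founding HECT ligase of the family, measured 2.04, 0.740 and 2.89 TPM, a mean of 1.89 ± 1.08 at percentile 2.56. These levels rested on 187, 83.0 and 235 expected counts. Library 2 was the lowest and library 3 the highest. The Itch to Nedd4 ratio of 5.28 ± 0.95 on the log2 scale, or 38.9-fold, was larger than the spread, and it was 4.75 ± 0.28 without library 2. It was 4.25 ± 0.77 by CPM in the smaller table and 4.56 ± 0.99 with protein-coding transcripts only.

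In TPM over all transcripts, Itch was not the leading HECT ligase gene of its family in these cells. The order of Wwp2 and Itch was not tried with protein-coding transcripts only or in the smaller table. Of the 213 ± 8.48 TPM summed over the 9 NEDD4 family genes, Wwp2 held 43.2% ± 0.818 and Itch 29.9% ± 0.660. Smurf1, a ligase best known from TGF-beta and BMP signalling, followed with 10.1% ± 0.669, and Nedd4 held 0.877% ± 0.478. Of the 7 relatives other than Itch and Nedd4, 5 were detected. Wwp2 was at 92.2 ± 4.61 TPM and Smurf1 at 21.5 ± 2.20, and Hecw2, the lowest, was at 0.0167 TPM with 1.00, 7.00 and 0 expected counts. All 6 genes on the list of other adaptors and related genes were detected, with Arrdc1 (216 ± 12.3 TPM) and Tsg101 (104 ± 4.54) highest and Arrdc4 (15.9 ± 1.38) lowest.

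**Figure D2:**
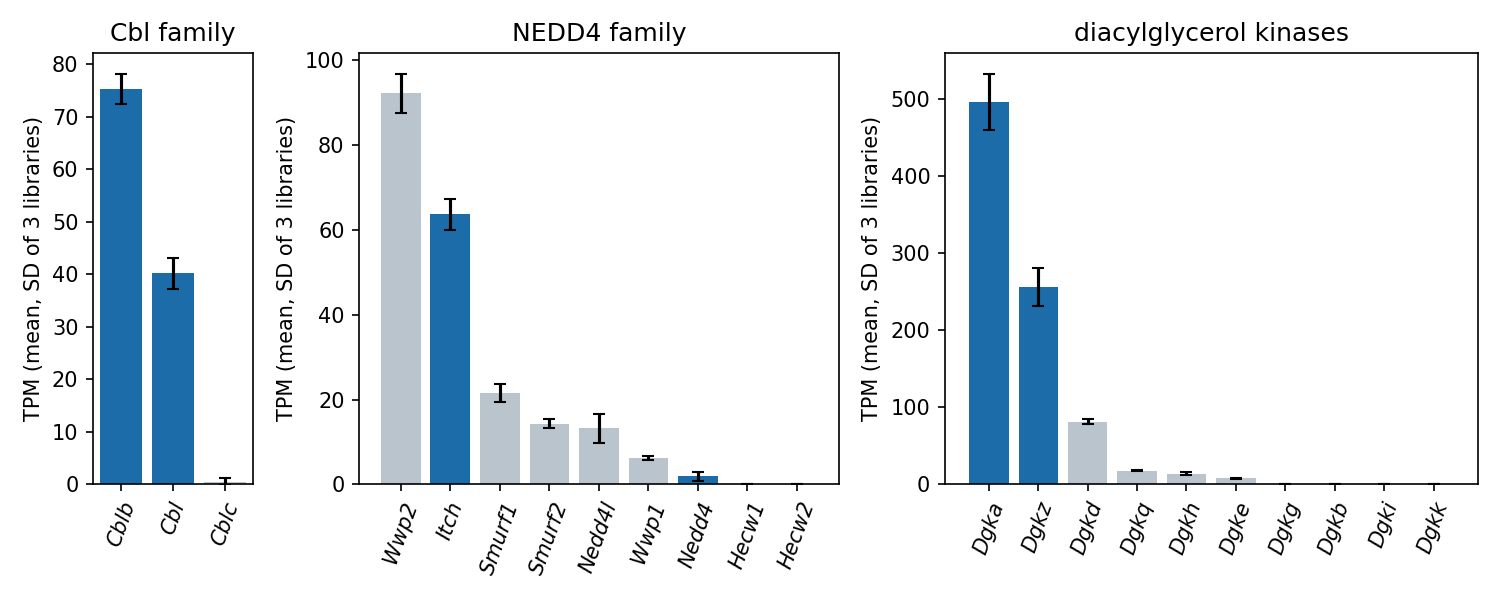
Mean TPM of each gene in 3 families on linear axes that start at 0 and differ between panels, with error bars of 1 SD over 3 technical libraries; blue bars are among the 10 genes and grey bars are their relatives. Cblb stands above Cbl, Wwp2 stands above Itch with Nedd4 near 0, and Dgka and Dgkz stand above the other 8 diacylglycerol kinases.

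Cblb (ENSMUSG00000022637.11; chromosome 16, 52031225 to 52208048, plus strand) encodes the RING ligase Cbl-b, which sets the need for CD28 costimulation. It measured 74.8, 78.3 and 72.6 TPM, a mean of 75.3 ± 2.89 at percentile 76.4. Cbl (ENSMUSG00000034342.9; chromosome 9, 44142976 to 44234049, minus strand) encodes c-Cbl, which targets active tyrosine kinases and their partners. It measured 39.7, 43.4 and 37.6 TPM, a mean of 40.2 ± 2.95 at percentile 59.3. The values of the paralogues did not overlap, and both were highest in library 2 and lowest in library 3. Cblb exceeded Cbl 1.87-fold (log2 ratio of Cbl to Cblb -0.91 ± 0.05), beyond the spread. With protein-coding transcripts only, that ratio was -0.22 ± 0.08. Within the Cbl family Cblb held 64.9% ± 0.495 and Cbl 34.7% ± 0.961 of the TPM, and Cblc, a form known from epithelia, was at 0.477 ± 0.645 TPM. The log2 ratio of Itch to Cblb, -0.24 ± 0.14, was within the spread. It passed the spread without library 3 (-0.31 ± 0.09), with protein-coding transcripts only (-0.30 ± 0.10), without length correction (-0.55 ± 0.13) and by CPM in the smaller table (-0.33 ± 0.07), with Cblb the higher in each.

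The paralogues Cbl and Cblb each had an annotated cassette exon of 132 bases. The 2 exons differ in sequence, and whether they are related was not tested. The shares are of the TPM of transcripts that contain or skip the exon, as the deposited transcript estimates divide it. In Cbl the exon lay at chr9:44158977-44159108 (mm10, minus strand) and was contained in 39.0%, 32.5% and 32.9%, a mean of 34.8% ± 3.66. In Cblb it lay at chr16:52186349-52186480 (plus strand) and was contained in 32.6%, 30.2% and 29.5%, a mean of 30.8% ± 1.62. The ranges overlap, and in both genes the form without the exon held the larger share in every library. Since 132 is a multiple of 3, either exon can be contained or skipped without a change of reading frame. The exons are shown because they separate the main coding forms, in the direction of transcription and in lower case throughout, from the GENCODE M21 transcripts.
Cbl cassette exon: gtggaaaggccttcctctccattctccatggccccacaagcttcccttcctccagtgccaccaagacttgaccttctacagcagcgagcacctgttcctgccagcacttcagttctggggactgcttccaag
Cblb cassette exon: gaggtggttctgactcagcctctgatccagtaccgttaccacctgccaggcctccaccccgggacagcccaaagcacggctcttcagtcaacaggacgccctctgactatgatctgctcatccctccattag

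The leading transcript of Cbl was the protein-coding Cbl-201 with 60.9% ± 5.21 of its TPM, followed by Cbl-206 with 25.7% ± 0.841. For Cblb it was Cblb-202, annotated as a retained intron, with 39.5% ± 1.18, ahead of the protein-coding Cblb-201 (27.9% ± 3.68), Cblb-206 (18.4% ± 1.42) and Cblb-204 (13.6% ± 3.21). By expected counts, which are not corrected for length, Cblb-201 led Cblb-202 with 40.1% against 33.5%. Cblb-202 runs through the splice site at the end of exon 3 and ends 3456 bases into an intron of 64651 bases. Restricted to protein-coding transcripts, Cblb stood at 45.1 ± 2.64 TPM.

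Transcripts of this kind, which pass a splice site and end inside the next intron, also held 10% or more of the TPM of Itch and Peli1. Itch-204 held 26.6% ± 1.30 of the TPM of Itch, between the protein-coding Itch-201 (38.1% ± 3.72) and Itch-202 (19.5% ± 5.18), but 8.08% ± 0.606 of its counts. It ends 1017 bases into an intron of 25120 bases after exon 2. Itch-205, named after its value was seen, held 7.73% ± 0.613 and ends 3076 bases into an intron of 4970 bases after exon 6. ENSMUST00000156122.7 held 11.5% ± 0.286 of the TPM of Peli1 and 3.82% ± 0.103 of its counts, and ends 348 bases into an intron of 4257 bases after exon 4. The 10 last exon bases and first 60 intron bases of the leading such transcript of each gene are shown because they hold the splice site that is passed, with its GT in capitals (GENCODE M21, plus strand). They lie at chr16:52047440-52047509 for Cblb, chr2:155138263-155138332 for Itch and chr11:21142648-21142717 for Peli1.
Cblb-202: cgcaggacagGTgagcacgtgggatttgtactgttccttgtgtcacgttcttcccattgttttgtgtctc
Itch-204: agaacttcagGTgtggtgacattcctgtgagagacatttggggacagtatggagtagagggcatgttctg
Peli1 transcript: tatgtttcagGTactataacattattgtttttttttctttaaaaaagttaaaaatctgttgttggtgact
All 3 hold the GT with which most introns begin. The deposited tables do not separate unspliced precursor RNA from finished transcripts.

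Rnf128 (ENSMUSG00000031438.11; chromosome X, 139563316 to 139673145, plus strand) encodes GRAIL, a RING ligase of endosomal membranes first described in anergic CD4 T cells. It measured 2.66, 1.90 and 3.79 TPM, a mean of 2.78 ± 0.951 at percentile 6.07, from 140.0, 106 and 239 expected counts. Like Nedd4, it was lowest in library 2 and highest in library 3. Cblb exceeded it 28.1-fold (log2 ratio of Rnf128 to Cblb -4.81 ± 0.55), and the ratio was -4.07 ± 0.58 with protein-coding transcripts only. One transcript, ENSMUST00000113026.1, held all of its TPM. The summed markers of macrophages (40.7, 38.9 and 44.2 TPM) were also lowest in library 2 and highest in library 3. So were those of plasma cells (19.4, 8.49 and 21.5 TPM) and of Treg cells (2729, 2685 and 2770.0 TPM). Single markers did not all share that order. The macrophage markers Csf1r (5.23, 6.09 and 3.96 TPM) and C1qb (12.4, 10.7 and 7.34 TPM) were lowest in library 3. The Treg marker Foxp3 (138, 133 and 134 TPM) was highest in library 1. The part of these cells in the Rnf128 and Nedd4 values was not tested. In bulk RNA, fewer cells of a type and less RNA per cell cannot be told apart.

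Of the 10 regulators and relatives of GRAIL, 6 were detected. The related ligase gene Rnf167 (248 ± 8.98 TPM) and Otub1 (58.1 ± 3.08), which encodes a ubiquitin hydrolase that regulates GRAIL, were highest. Rnf133, Rnf148 and Znrf4 had 0 counts in every library, which allows up to 0.112, 0.120 and 0.126 TPM for 3 counts in a library. Rnf128 was therefore low but above that limit, and Rnf167 was the more abundant of these membrane ligases.

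Peli1 (ENSMUSG00000020134.13; chromosome 11, 21091291 to 21150323, plus strand) encodes a Pellino RING ligase that limits T cell activation by acting on c-Rel. It measured 274, 271 and 288 TPM, a mean of 278 ± 9.06 at percentile 95.0, and in TPM was the most abundant ligase of the 10 genes. It exceeded Cblb 3.69-fold (log2 ratio 1.88 ± 0.10), beyond the spread. In the smaller table that ratio was 0.66 ± 0.07 per kilobase and 0.15 ± 0.04 by CPM. The log2 ratio of Stub1 to Cblb was 1.00 ± 0.07 and -0.71 ± 0.04 there. Stub1 thus stood above Peli1 per kilobase and below it by CPM in that table. Peli1 held 99.7% ± 0.0440 of the TPM of its family, and the lowest relative, Peli3, was at 0.107 ± 0.159 TPM. The leading transcript ENSMUST00000093290.11 was protein coding, with 84.9% ± 0.216. Of the 7 Pellino relatives and partners, 5 were detected, led by Ube2n (301 ± 0.341 TPM) and Ube2v1 (254 ± 3.26), which form the E2 enzyme for K63-linked chains.

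Stub1 (ENSMUSG00000039615.9; chromosome 17, 25830505 to 25833404, minus strand) encodes CHIP, a U-box ligase that ubiquitinates clients of Hsp70 and Hsp90 and is known to target Foxp3. It measured 124, 126 and 109 TPM, a mean of 119.8 ± 9.04 at percentile 85.8. Library 3 was the lowest. All 8 chaperone partners listed were detected, with the Hsp70 gene Hspa8 (1694 ± 48.4 TPM) and the Hsp90 gene Hsp90ab1 (513 ± 14.8) highest and the co-chaperone gene Bag2 (2.94 ± 0.666) lowest. Stub1 exceeded Itch 1.88-fold (log2 ratio 0.91 ± 0.19) over all transcripts, but the log2 ratio was 0.17 ± 0.07 with protein-coding transcripts only and -0.52 ± 0.16 without length correction. The mean transcript length behind the counts was 1414 to 1422 bases for Stub1 and 3649.6 to 3900.1 bases for Itch.

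Most of the Stub1 TPM was assigned to transcripts that keep an intron. ENSMUST00000236565.1, a retained-intron transcript, held 55.2%, 55.5% and 56.2%, a mean of 55.6% ± 0.538, and the protein-coding ENSMUST00000236361.1 held 20.2% ± 1.74. Transcripts that keep intron 4 of ENSMUST00000044911.9, at chr17:25831366-25831543 (178 bases, mm10, minus strand), held 66.1%, 67.7% and 62.4%, a mean of 65.4% ± 2.71. Read on in frame from the exons of ENSMUST00000044911.9, the intron reaches a stop codon that starts at its base 103. Restricted to protein-coding transcripts, Stub1 stood at 41.3 ± 0.734 TPM.

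The whole intron also lies in exons of Jmjd8 on the opposite strand, whose transcripts that cover it summed to 11.1 TPM (all of Jmjd8, 15.5 TPM). Whether counting used strand is not stated in the labels or headers, so reads of Jmjd8 and of this intron cannot be told apart. Over the whole gene, Stub1 shares 1084 exon bases with Jmjd8. The same limit therefore applies to the level of Stub1, its protein-coding level and its ratios. Of the hairpin of Mir3082, on the strand of Stub1, 63 of 64 bases lie in the intron as well. Its row held 0, 0 and 12.7 TPM in libraries 1, 2 and 3, so library 3 gave the whole value. The mature miR-3082-3p ends exactly at the 3′ end of the intron, at chr17:25831366-25831387 (RefSeq, GRCm38.p6). The intron's first 30 bases, with the GT in capitals, and the microRNA, with its seed (bases 2 to 8) in capitals, are shown because they mark both ends of the kept stretch.
Stub1 intron start: GTgagggtgcccctagtccacatgtgggtc
miR-3082-3p: cACAUGGCacucaacucugcag
The first 30 bases lie at chr17:25831514-25831543 on the minus strand. Polyadenylated RNA libraries do not measure mature microRNAs, so no level is given for miR-3082-3p.

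**Figure D3:**
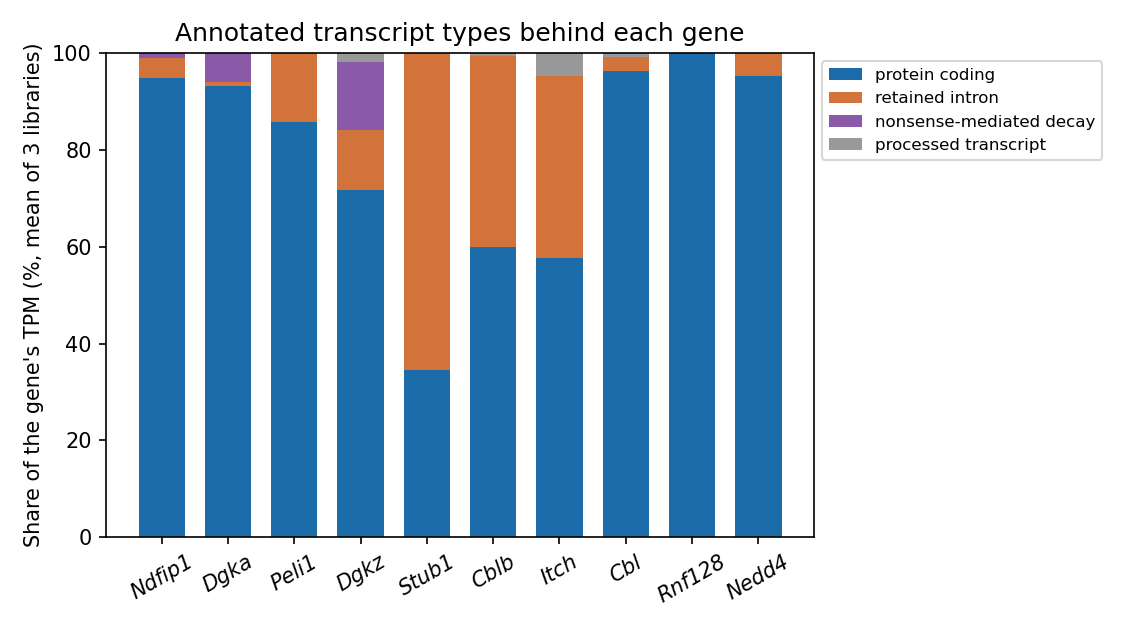
Share of each gene's TPM in percent, as the mean of 3 technical libraries, by the annotated type of the transcript: protein coding, retained intron, nonsense-mediated decay or processed transcript. Stub1 has the largest retained-intron part (65.4%), Cblb and Itch have 39.5% and 37.5%, and Rnf128 is protein coding throughout.

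Over the 10 genes, 8 were led by a protein-coding transcript in TPM, and Cblb and Stub1 were the exceptions. By expected counts 9 were, with Stub1 the exception. Retained-intron transcripts held 65.4% ± 2.71 of the TPM of Stub1, 39.5% ± 1.18 of Cblb, 37.5% ± 0.504 of Itch, 14.3% ± 0.261 of Peli1 and 12.4% ± 2.97 of Dgkz. In Cbl, Nedd4, Ndfip1 and Dgka the share was below 5%. Nedd4 rested on few reads, and its transcript shares were unsteady: ENSMUST00000034740.14 held 79.4%, 97.3% and 54.0%, and ENSMUST00000183375.7 held 6.86%, 0 and 34.9%.

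Dgka (ENSMUSG00000025357.8; chromosome 10, 128720134 to 128744855, minus strand) encodes the calcium-regulated diacylglycerol kinase alpha. It measured 535, 463 and 491 TPM, a mean of 496 ± 36.7 at percentile 97.6. Dgkz (ENSMUSG00000040479.11; chromosome 2, 91932824 to 91975864, minus strand) encodes the zeta form, which limits Ras signalling after receptor engagement. It measured 279, 229.8 and 258 TPM, a mean of 256 ± 24.7 at percentile 94.3. Both were highest in library 1 and lowest in library 2, and their values did not overlap. The summed markers of red cells (828, 592 and 656 TPM), B cells (50.9, 36.7 and 40.3), granulocytes (15.4, 0.210 and 1.64), dendritic cells (4.07, 2.87 and 3.52) and T cells in general (6284, 6248 and 6279.6) had the same order over libraries. Single markers did not all share that order. The B cell marker Ms4a1 (2.90, 1.73 and 3.45 TPM) was highest in library 3. The T cell marker Cd3d (732, 827 and 838 TPM) was lowest in library 1. The part of these cells in the kinase values was not tested. The log2 ratio of Dgka to Dgkz was 0.94, 1.01 and 0.93, a mean of 0.96 ± 0.04, or 1.94-fold, beyond the spread in the larger table. In the smaller table, where abundant genes level off, that difference was 0.03 ± 0.08 per kilobase.

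Dgka and Dgkz together accounted for most diacylglycerol kinase RNA. Of the 874 ± 61.5 TPM summed over 10 kinase genes, Dgka held 56.8% ± 0.312 and Dgkz 29.2% ± 0.876. Of the other 8, 4 were detected. Dgkd held 9.31% ± 0.404 (81.2 ± 3.23 TPM), and Dgkz exceeded it 3.14-fold (log2 ratio 1.65 ± 0.11; 0.68 ± 0.01 by CPM in the smaller table). Dgkq was at 17.7 ± 0.646 TPM, and Dgkk had 0 counts in every library, which allows up to 0.0205 TPM. Among 13 sources and sensors of diacylglycerol 10 were detected, with a median of 117 TPM. The protein kinase C genes Prkch (320.1 ± 5.10 TPM) and Prkcq (208 ± 1.82) were highest and Rasgrp3 (0.353 ± 0.301) was lowest.

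The protein-coding Dgka-201 held 93.1% ± 1.67 of the gene's TPM. The next, Dgka-203, held 6.10% ± 1.53, is annotated for nonsense-mediated decay (destruction of RNA with an early stop codon) and was named after its value was seen. It lacks an exon of 89 bases at chr10:128731324-128731412 (mm10, minus strand), a length that is not a multiple of 3. The exon was contained in 94.8%, 92.1% and 94.6% of the TPM of the transcripts that contain or skip it, a mean of 93.8% ± 1.56. It is shown, in lower case throughout, because its skipping separates the 2 forms.
Dgka cassette exon: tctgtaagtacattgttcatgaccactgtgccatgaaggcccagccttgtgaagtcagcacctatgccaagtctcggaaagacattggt
Dgka also shares 105 exon bases with Pmel on the opposite strand, which was at 3.48 TPM.

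The TPM of Dgkz was assigned to transcripts with several annotated first exons, and start sites were not measured. Dgkz-201, protein coding, starts at position 91963657 of chromosome 2 (mm10) and held 59.6%, 69.3% and 67.8% of the TPM, a mean of 65.6% ± 5.23. Transcripts with the first exon of Dgkz-212, which is annotated for nonsense-mediated decay, held 11.4% ± 3.85, and Dgkz-212 alone held 11.0% ± 3.80. Those with the first exon of Dgkz-203, which starts downstream at position 91950427, held 7.94% ± 0.148. The bases just upstream of the starts of Dgkz-201 and Dgkz-203 are shown because the forms begin at different annotated starts, both with an entry in RefSeq, as the RefSeq promoter table gives them (GRCm38.p6, minus strand), with matches to the GC box GGGCGG on either strand in capitals. They lie at chr2:91963658-91963813 and chr2:91950428-91950598.
Dgkz-201 upstream: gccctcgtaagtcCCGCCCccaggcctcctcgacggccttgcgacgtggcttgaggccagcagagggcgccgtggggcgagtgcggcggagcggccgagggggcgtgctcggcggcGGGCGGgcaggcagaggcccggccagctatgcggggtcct
Dgkz-203 upstream: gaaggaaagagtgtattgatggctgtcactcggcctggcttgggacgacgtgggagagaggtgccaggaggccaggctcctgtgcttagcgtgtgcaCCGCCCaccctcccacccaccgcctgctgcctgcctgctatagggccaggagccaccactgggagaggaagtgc
The printed 156 and 171 bases hold 2 and 1 GC boxes. In windows of 300 bases, from 250 before to 50 after the start, GC content was 77.7% for Dgkz-201 and 61.7% for Dgkz-203, against a median of 52.7% over 32851 mouse promoters. The windows held 43 and 10 CpG pairs (median 7.00) and 5 and 1 GC boxes, a motif found in 35.7% of all promoters. Neither window held TATAAA, present in 13.6% of promoters, or CACGTG, present in 7.15%. A match describes the letters only.

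In order of TPM, 6 of the 9 steps between neighbouring genes were larger than the spread between libraries. The step from Ndfip1 to Dgka was 0.84 ± 0.12 on the log2 scale, that from Dgka to Peli1 0.84 ± 0.11 and that from Dgkz to Stub1 1.09 ± 0.20. Those from Stub1 to Cblb (0.67 ± 0.07), from Itch to Cbl (0.66 ± 0.18) and from Cbl to Rnf128 (3.91 ± 0.60) were also larger. Peli1 and Dgkz did not differ beyond the spread (0.12 ± 0.14, with Dgkz higher in library 1), nor did Cblb and Itch (0.24 ± 0.14) or Rnf128 and Nedd4 (0.71 ± 0.56). Leaving out library 1 put Peli1 beyond Dgkz (0.20 ± 0.06), and leaving out library 2 put Rnf128 beyond Nedd4 (0.39 ± 0.01). The latter step was -0.01 ± 0.39 without length correction and -0.22 ± 0.41 by CPM in the smaller table, both within the spread. With protein-coding transcripts only, the steps from Stub1 to Cblb and from Itch to Cbl turned to -0.12 ± 0.09 and -0.08 ± 0.12, both within the spread. The step from Dgkz to Stub1 was then 2.14 ± 0.07. In the smaller table, per kilobase, those from Ndfip1 to Dgka and from Peli1 to Dgkz turned to -0.99 ± 0.02 and -1.07 ± 0.06. Of the 10 pairs compared by role, 9 differed beyond the spread in TPM over all transcripts, the exception being Itch and Cblb.

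All 10 genes varied between the technical libraries by more than counting error, by a chi-square test of equal shares of expected counts with Benjamini-Hochberg adjustment. So did 65.8% of the 15945 genes tested, so the count says little about these genes in particular. The adjusted p of this chi-square test ran from 2.85e-44 for Dgka to 0.00253 for Itch. Dgka measured 921, 816 and 856 CPM, highest in library 1, and Itch 142, 148 and 153, lowest there. The spread beyond counting error, as a coefficient of variation, was 41.3% for Nedd4 and 33.0% for Rnf128, 12.0% for Cbl and 2.75% to 7.73% for the other 7. The median over the 10 genes was 6.62%, against 15.9% over genes with 50 to 500 mean counts and 4.91% over genes with 1000 or more. The mean overdispersion, the mean chi-square per degree of freedom over all genes tested, was 11.7. With the chi-square divided by it, Dgka remained as the 1 gene of the 10. The same divisor was used at all counts, although the test calls smaller differences at higher counts. Without library 2 the adjusted p of Nedd4 by this chi-square test was 0.663.

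**Figure D4:**
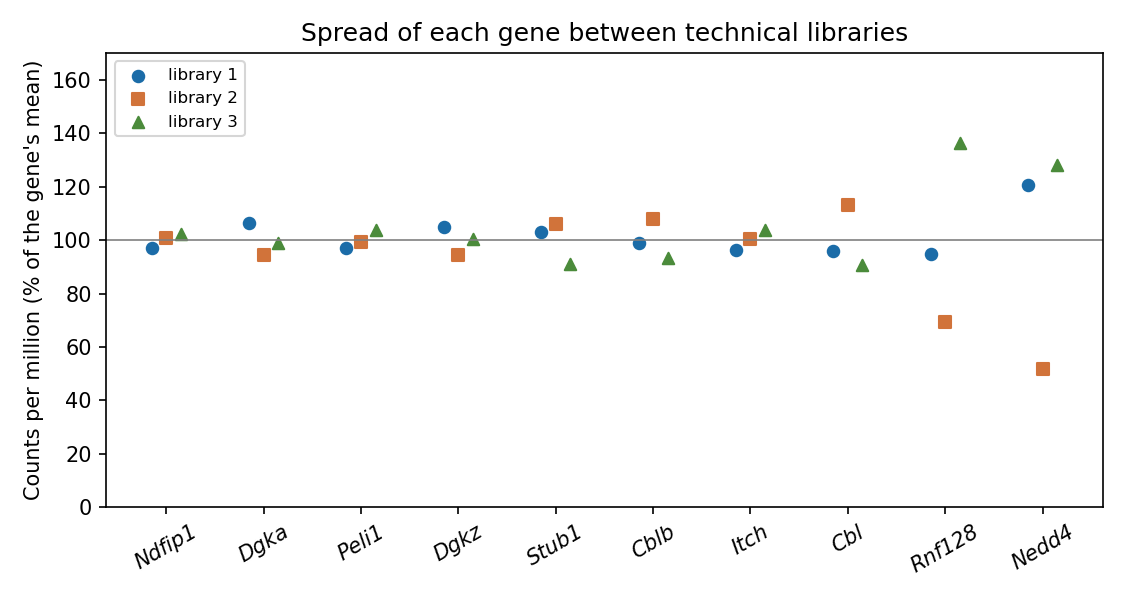
CPM of each of the 10 genes in each technical library as a percentage of the gene's mean, with a line at 100%. The 8 abundant genes lie near the line, whereas Rnf128 and Nedd4, the 2 genes with the fewest counts, spread widely with library 2 lowest.

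The other genes of these pathways were mostly present. Of 100 genes in 12 lists chosen by role, 84 were detected. By the chi-square test 74 of the 90 tested (82.2%) varied between libraries, against 65.8% of all genes tested. The chi-square test calls smaller differences at higher counts, and the shares were not matched for counts, so they cannot be compared directly. All 10 genes on the list of Cbl and Itch substrates and related signalling genes were detected, at a median of 162 TPM. The receptor chain genes Cd3e (1274 ± 39.0) and Cd247 (356 ± 32.0) were highest and the transcription factor gene Jun (33.1 ± 2.81) was lowest. Among 11 Cbl partners and regulators 10 were detected, led by the adaptor genes Sh3kbp1 (347 ± 14.4 TPM) and Sla (329 ± 13.2), with Cblc lowest. All 6 E2 enzyme genes listed were detected, with Ube2d3 (518 ± 32.8 TPM) and Ube2l3 (311 ± 7.40) highest and Ube2e3 (18.5 ± 1.64) lowest. The 6 deubiquitinase genes listed were all detected, from Cyld (114 ± 2.15 TPM) and Usp9x (55.4 ± 1.89) down to Otud7b (12.8 ± 3.22). All 10 further anergy genes were detected, with the folate receptor family gene Izumo1r (609 ± 18.9 TPM) and Nrp1 (165 ± 5.60) highest and the inhibitory receptor gene Lag3 (7.57 ± 1.89) lowest. The level of Rnf128 was thus below those of all 10 anergy genes in this list.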

How the data were processed

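Polyadenylated RNA from 1 biosample was sequenced in 3 technical libraries, the replicates 1, 2 and 3 of the labels. For each library the authors deposited a larger gene table and a transcript table on mm10 with GENCODE M21, per the file headers and sample notes. These hold expected counts, TPM and FPKM, and the transcript table also each transcript's percent of its gene, as deposited. The column names match those of RSEM. In the sources used here, the aligner, the quantifier and the use of strand are not given. A smaller table, also deposited by the authors, has whole-number counts on GENCODE M4 from a separate alignment, 8758421 to 9555924 per library. Its values level off in abundant genes: Ndfip1 had 1473, 1470 and 1469 there against up to 35362 expected counts in the larger table.

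From these files, symbols were matched through GENCODE M21 annotation. Rows that name no gene held 0.125% to 0.182% of expected counts and stayed out of library sizes and tests. Expected counts were rounded for the chi-square test (2 degrees of freedom, summed count of at least 30, adjusted p under 0.05). The test was tried on simulated counts with counting error and planted changes only. These lacked the overdispersion of the real libraries, so the trial does not show how the test behaves with it. It compares reads and libraries, not molecules or conditions. Where a gene had 0 counts, the limit is the TPM of 3 counts, for counting error only. In 4 of the 10 genes (Cblb, Nedd4, Rnf128 and Peli1) no reads were shared with other genes by the deposited count error. Genes with close copies, such as Hspa8 and the E2 genes, are less certain. Splice events were read from transcript models, not from junction reads.

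The members and lists were chosen with earlier results of these data known. Named were all 10 genes, the 2 highest and the lowest gene of each list, genes of a pair, and transcripts with at least 10% of a gene. The splice events, first exons, Itch-205, Dgka-203, Dgkz-203, Jmjd8, Pmel and Mir3082 were named after their values were seen. The alternatives tried were other scalings (edgeR 4.0.16 TMM and DESeq2 1.42.0 size factors), filters, tables, pseudocounts, transcript sets and libraries left out. Python 3.11.15, pandas 2.3.3, scipy 1.17.1, statsmodels 0.14.6 and R 4.3.3 were used.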

Additional observations from a re-analysis of the deposited data

How the results depend on the processing

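The count of pathway genes detected, the number of genes led by a protein-coding transcript and the counts of ratios beyond the spread stayed within 1.5 times their main counts under each alternative run for them. With protein-coding transcripts only, the median of the 10 genes was 43.2 TPM, the log2 ratio of Stub1 to Cblb was -0.12 and that of Itch to Cbl -0.08. Without length correction, Stub1 to Cblb was -1.07 and Stub1 to Itch -0.52. In the smaller table, by CPM, Ndfip1 to Dgka was -1.70, Peli1 to Dgkz -1.00, Stub1 to Cblb -0.71, Ndfip1 to Itch -0.32, Stub1 to Itch -0.38 and Dgka to Dgkz -0.10. Per kilobase, Ndfip1 to Dgka was -0.99 and Peli1 to Dgkz -1.07 there. That table levels off in abundant genes. The causes of these changes were not tested. Genes called by the chi-square test numbered 10487 in the main analysis, 117 after division by the mean overdispersion and 3845 in the smaller table. With 1 library left out they numbered 6069 (without library 2) to 7265 (without library 1). Among the 10 genes the corresponding calls were 10, 1, 4 and 7 to 9. Counted over ratios and alternatives, a call of larger than the spread was lost without a change of sign 3 times for neighbours and 1 time for pairs, and gained 7 and 4 times. Counted likewise, 20 transcript shares moved by more than 1 SD and 80 did not. Of the chi-square calls for the 10 genes, 21 were lost and 69 were not. One biosample in technical libraries shows nothing of the spread between animals. For Nedd4 and Rnf128, 83.0 to 239 expected counts per library limit what can be said of levels and transcripts.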
